A study of Mus musculus with 2 samples.

Results

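The 10 genes described here mark T cells and natural killer (NK) cells, and their values were taken from every comparison of the non-muscle cells of the infarcted mouse heart. They were Cd3d, Cd3e, Cd3g, Cd4, Cd8a, Il7r, Nkg7, Gzma, Gzmb and Klrd1, and they are 10 of the 15181 genes that appear in at least 1 of 22 tables, 18 of which hold a cell cluster and 4 a fibroblast subcluster. Each table sets 1 droplet single-cell RNA library against the other. The control library came from PostnMCM mice, and the other library came from Yapfl/fl;Wwtr1fl/+;PostnMCM mice, in which both copies of Yap and 1 copy of Wwtr1 are floxed. All mice carried an R26-eGFP reporter, underwent ligation of the left anterior descending coronary artery to cause a myocardial infarction (MI), and ate chow with 0.4 g/kg tamoxifen citrate from then on until collection on day 6 after MI by the labels, where the study's text gives a later day. PostnMCM is a tamoxifen-inducible Cre driven from the periostin locus, which is active in fibroblasts that turn into myofibroblasts. Sorted viable cells were loaded after a filter that removes cardiomyocytes, and the number of hearts behind each library is not given in the sources used here.

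The targeted transcripts did not follow the label throughout. In the 4 fibroblast subclusters the average log2 fold change of Yap1 was above 0 in all 4, although its share was lower in subcluster 4 at 57.5% and 40%, and that of Wwtr1 was below 0 in 3 of 4, while neither gene is listed in any cluster table. A deleted exon need not lower a 3′ count, so this does not check the genotype, and the library of the floxed mice is named by its label, depleted, below. With 1 library per genotype there is no replicate, and the differences below carry no test, no standard error and no interval. The libraries also stood apart in a gene unrelated to lymphocytes. Ftl1-ps2, a ferritin light chain pseudogene whose reads may be shared with its parent gene, was listed in all 18 cluster tables, at 0% to 5.2% of control cells and 28.3% to 100% of the others, with log2 fold changes from 0.58 to 3.12. Its part in the differences below was not tested. Cell numbers and read depth are not in the tables and were not inferred from the shares, but the shares show how coarse each value is. In the control cells of cluster 10 the shares of 1691 listed genes took 12 distinct values, in those of cluster 9 the 1302 shares took 18 and in those of cluster 6 the 703 took 28, so each rests on few cells. In the cells labelled depleted, cluster 14 took 27 distinct shares and cluster 15 took 23. In subcluster 4 of the library labelled depleted, 15059 genes took 11 distinct shares. A share is the percentage of a cluster's cells with a count above 0 after the authors' correction, and the log2 fold change is the authors' difference between libraries in the log2 of the mean corrected count plus 1, positive where the library labelled depleted is higher. The added 1 draws low genes toward 0. Every value is from the deposited tables.

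T cells recognise antigen through a receptor whose signal is carried by the CD3 chains, with CD4 or CD8 as co-receptor for antigen on class II or class I molecules. Il7r is the receptor for interleukin 7, a survival signal of naive and memory lymphocytes. Cytotoxic T cells and NK cells kill through granules that hold granzymes, and NK cells read their targets through receptors of the killer cell lectin family. T cells and NK cells enter the injured heart after infarction, where neutrophils and macrophages are also abundant.

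On GRCm39 all 10 genes are annotated as protein coding. The genes of the 3 CD3 chains lie together on chromosome 9 within 40056 bases, with Cd3g at chr9:44880870-44891735 on the minus strand, Cd3d at chr9:44893083-44899173 on the plus strand and Cd3e at chr9:44910037-44920925 on the minus strand. Cd3g and Cd3d are transcribed away from each other from starts 1348 bases apart, and the starts of Cd3d and Cd3e are 27842 bases apart. Chromosome 6 holds Cd8a at chr6:71350411-71356157 on the plus strand, Cd4 at chr6:124841655-124874758 on the minus strand and Klrd1 at chr6:129568677-129575738 on the plus strand. The remaining genes are apart from one another, with Nkg7 at chr7:43086497-43087678 on the plus strand, Gzma at chr13:113230355-113237524, Gzmb at chr14:56496295-56499717 and Il7r at chr15:9505874-9530262, all 3 on the minus strand.

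Promoter windows of 300 bases, 250 before to 50 after the transcription start, were available from RefSeq for 8 of the 10 genes, on the older build GRCm38.p6. Cd4 and Klrd1 were not among them. The windows of Gzma, Nkg7 and Il7r are shown because these genes were lower in cluster 9 and had lower shares in most fibroblast subclusters, and that of Cd3g because it was higher there. They lie at chr13:113100932-113101231 on the minus strand, chr7:43436888-43437187 on the plus strand, chr15:9529827-9530126 on the minus strand and chr9:44980382-44980681 on the minus strand of that build. Capitals mark the core motif of the RUNX factors, TGTGGT or its reverse complement ACCACA.
Gzma: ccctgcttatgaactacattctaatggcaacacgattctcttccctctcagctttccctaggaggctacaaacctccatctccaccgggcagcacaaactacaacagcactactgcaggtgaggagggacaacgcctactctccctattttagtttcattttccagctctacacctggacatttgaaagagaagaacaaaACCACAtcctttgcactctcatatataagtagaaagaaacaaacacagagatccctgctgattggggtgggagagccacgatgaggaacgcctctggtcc
Nkg7: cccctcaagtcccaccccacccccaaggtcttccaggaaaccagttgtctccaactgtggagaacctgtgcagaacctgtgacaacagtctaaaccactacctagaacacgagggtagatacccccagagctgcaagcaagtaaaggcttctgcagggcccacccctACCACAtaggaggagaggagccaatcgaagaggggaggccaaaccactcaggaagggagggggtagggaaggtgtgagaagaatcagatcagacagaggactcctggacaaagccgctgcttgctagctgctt
Il7r: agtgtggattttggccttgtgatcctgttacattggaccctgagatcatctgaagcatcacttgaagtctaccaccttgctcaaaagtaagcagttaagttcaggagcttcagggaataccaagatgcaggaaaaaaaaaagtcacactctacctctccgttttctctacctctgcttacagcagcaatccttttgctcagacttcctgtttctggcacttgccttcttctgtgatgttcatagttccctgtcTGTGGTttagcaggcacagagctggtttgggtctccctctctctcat
Cd3g: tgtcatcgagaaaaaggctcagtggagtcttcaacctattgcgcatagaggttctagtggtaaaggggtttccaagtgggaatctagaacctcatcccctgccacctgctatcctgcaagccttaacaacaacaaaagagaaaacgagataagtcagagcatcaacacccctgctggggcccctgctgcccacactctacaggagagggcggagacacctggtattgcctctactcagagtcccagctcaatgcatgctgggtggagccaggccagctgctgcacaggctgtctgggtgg
The RUNX core was present in 4 of the 8 windows and in 16.8% of 32851 mouse promoter windows of the same length. It began 50 bases before the start in Gzma, 83 before in Nkg7 and 3 after in Il7r, and Gzmb held it 93 and 34 bases before its start. Gzmb was higher where listed, and Nkg7 and Gzma were higher in clusters 7 and 10, so the motif did not go with 1 direction. The windows of Cd3d, Cd3e, Cd3g and Cd8a did not hold these letters. Neither CCGGAAGT, an ETS motif, nor TATAAA occurred on either strand in the 8 windows, against 3.89% and 13.6% of all windows. These matches describe letters and were not tested as binding sites.

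Cluster tables list a gene only where its log2 fold change is at least 0.25 in size and at least 25% of cells in either library have a count. The members met these limits 28 times in 18 tables, which is 15.6% of the 180 possible listings, beside 5.09% over all 16846 genes of the object. They were lower in the library labelled depleted in 10 listings and higher in 18, so 35.7% were lower, beside 52.3% of all listings. The 5 clusters that the study names T cells (4, 7, 8 and 10) or NK cells (14) held 18 of the 28 listings, 36% of the 50 possible there, beside 4.84% of all genes, and all 10 genes were listed at least once among them. Of these 18, 5 were lower and 13 higher, a lower share of 27.8% beside 46.9% of all listings in those tables. Their median log2 fold change was 0.37, beside 0.26 for all listings there, and none reached 1 in size. At a size limit of 0.5 the counts were 5 lower and 5 higher over the 18 tables, and 2 and 2 in these 5. The lean toward higher thus lay in listings below 0.5 in size. The limit on detection takes part in every listing, so these listed shares are not shares of genes that differ by genotype.

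The other 13 cluster tables held 10 listings of 130 possible, or 7.69% beside 5.19% of all genes. Of these, 5 were lower and 5 higher, beside 54.3% lower over all listings in those tables. These 10 listings came from clusters 6, 9, 11 and 15 alone. The tables of clusters 0, 1, 2, 3, 5, 12, 13, 17 and 18, which the study names macrophages and monocytes, neutrophils, B cells, fibroblasts and dendritic cells, list no member. That absence says that a member missed at least 1 of the 2 limits, and not that its share was 0. Outside the clusters named T or NK cells does not mean outside lymphocytes, since Cd3g had a count in 94.1% and 97.9% of cells in cluster 9. From proliferation markers in clusters 6 and 10 the study proposes proliferating T cells, though its list of T cell clusters leaves cluster 6 out. With clusters 6 and 9 counted among the T cell and NK cell tables, a choice made after the data were seen, that group held 8 lower and 15 higher and the rest 2 lower and 3 higher. The 4 log2 fold changes of at least 1 in size lay in clusters 9, 11 and 15. The name T cells does not mean mature T cells alone. In cluster 10 Dntt, a gene of antigen receptor assembly chosen after its values were seen, had a count in 90.9% and 96.2% of cells. Rag1, chosen the same way, had a count in 54.5% and 77.4%.

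**Figure D1:**
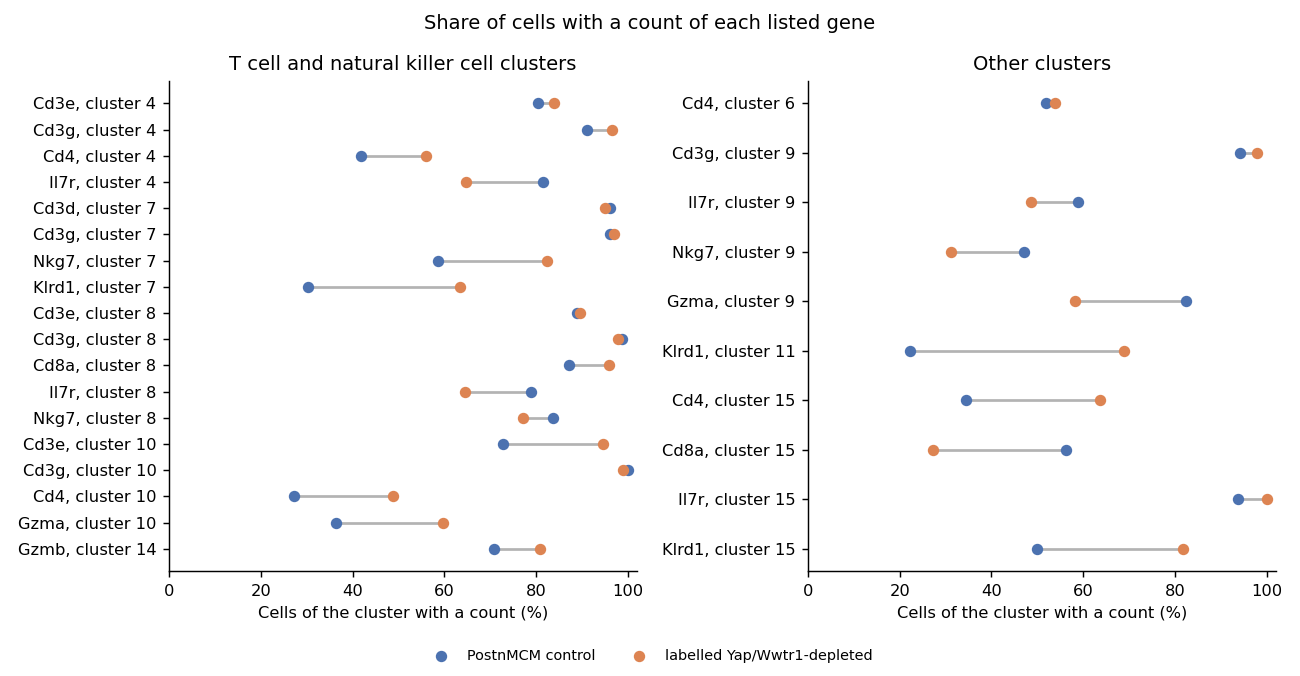
Percentage of cells with a count of each listed gene in the control library (blue) and in the library labelled Yap/Wwtr1-depleted (orange), 1 line per gene and cluster, with 1 library per genotype and therefore no error bars. Cd3g sits above 90% in both libraries in all 5 clusters that list it, while Klrd1 in cluster 11 spans 22.2% to 68.8%.

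The CD3 chains had a count in most cells of both libraries wherever a T cell cluster lists them. Cd3g, which encodes the gamma chain, was listed in 5 tables. In cluster 4 it had a count in 91.2% of control cells and 96.5% of cells of the library labelled depleted, a log2 fold change of 0.42. Cluster 8 gave 98.8% and 97.9% with 0.44, and cluster 10 gave 100% and 98.9% with 0.50. In cluster 9 the pair was 94.1% and 97.9% with 0.40. Only cluster 7 turned the other way, with 96% and 96.9% and a log2 fold change of -0.33. Shares this close to 100% leave almost no room to differ, so the sizes rest on the counts per cell. In clusters 7, 8 and 10 the share went against the sign of the fold change by 1.1 percentage points or less.

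Cd3e, the epsilon chain, was higher in each of the 3 tables that list it. In cluster 4 it had a count in 80.5% of control cells and 83.9% of the others, with a log2 fold change of 0.29. In cluster 8 they were 88.9% and 89.6% with 0.26, just inside the listing limit. Cluster 10 showed the widest gap, 72.7% against 94.6%, and a log2 fold change of 0.30. Cd3d, the delta chain, was listed in cluster 7 alone, with 96% and 95% of cells and a log2 fold change of -0.26. After centring each table on the median of its listed genes, the values of Cd3e in cluster 8 and of Cd3d in cluster 7 passed to the other side of 0, at -0.01 and 0.03. The other 2 values of Cd3e, in clusters 4 and 10, came to 0.0004 and 0.03, so no Cd3e listing kept its size, and Cd3g came to -0.04 in cluster 7, 0.13 in cluster 4, 0.18 in cluster 8 and 0.24 in cluster 10. The tables list no value near 0, so the median used for centring lies just beyond the size limit on 1 side or the other.

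Cd4, the co-receptor of helper and regulatory T cells, was higher in the library labelled depleted in all 4 tables that list it. Cluster 4 held Cd4 counts in 41.8% of control cells and 56.1% of the others, with a log2 fold change of 0.44. In cluster 10 the shares were 27.3% and 48.9% with 0.46. Centring brought these 2 values to 0.15 and 0.20. Cluster 6 gave 51.9% and 53.8% with 0.37. The largest value, 0.80, came from cluster 15, where 34.4% of control cells and 63.6% of the others had a count. Macrophages and dendritic cells can also carry Cd4, so the gene alone does not name a T cell.

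Cd8a, the alpha chain of the CD8 co-receptor of cytotoxic T cells, was listed in 2 tables with opposite signs. In cluster 8 it was counted in 87.1% of control cells and 95.8% of cells labelled depleted, with a log2 fold change of 0.40, or 0.13 after centring. In cluster 15 it was at 56.2% and 27.3% with -1.30, the 2nd lowest of 1376 genes listed there. In fibroblast subcluster 4 of the same library, normalised apart, Cd8a had a count in 30% of cells. The other subclusters were at 8.7% to 19%, below the 27.3%. The 30% is coarse, since the shares there took 11 distinct values, so the 27.3% is not read as expression or as background. Of the 54 listed shares of the 9 members with subcluster values, the 27.3% was the 1 share at or below the highest fibroblast share of its gene and library. Its partner chain gene, Cd8b1, is not listed in cluster 8, and in cluster 4 it had a count in 13.2% of control cells and 31.3% of the others, a log2 fold change of 1.17. In cluster 7 Cd8b1 was at 14.1% and 26.4% with 0.37. In the fibroblast subclusters it had a count in 0% to 10% of control cells and 20% to 28.6% of the others, so its share in cluster 7 of the library labelled depleted is not above that background and its share in cluster 4 is little above it. It was lower in cluster 15, at 71.9% and 68.2% with -0.47, and in cluster 6, at 81.5% and 82.8% with -0.25.

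Il7r was lower in the library labelled depleted in all 4 tables that list it. In cluster 4 it had a count in 81.4% of control cells and 64.8% of the others, a log2 fold change of -0.74 that ranked 9th lowest among the 450 genes listed. Cluster 8 gave 78.9% and 64.6% with -0.61. Centring took the values of clusters 4 and 8 further from 0, to -1.03 and -0.88. In cluster 9 the shares were 58.8% and 48.7% with -0.35, which centring brought to -0.07. Cluster 15 kept Il7r in nearly every cell, 93.8% and 100%, yet its log2 fold change was -0.58, or -0.32 after centring, so the share and the mean count went opposite ways. Bcl2, a survival gene, was also lower in clusters 4, 8, 9 and 10, by -0.48, -0.56, -0.78 and -0.78.

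**Figure D2:**
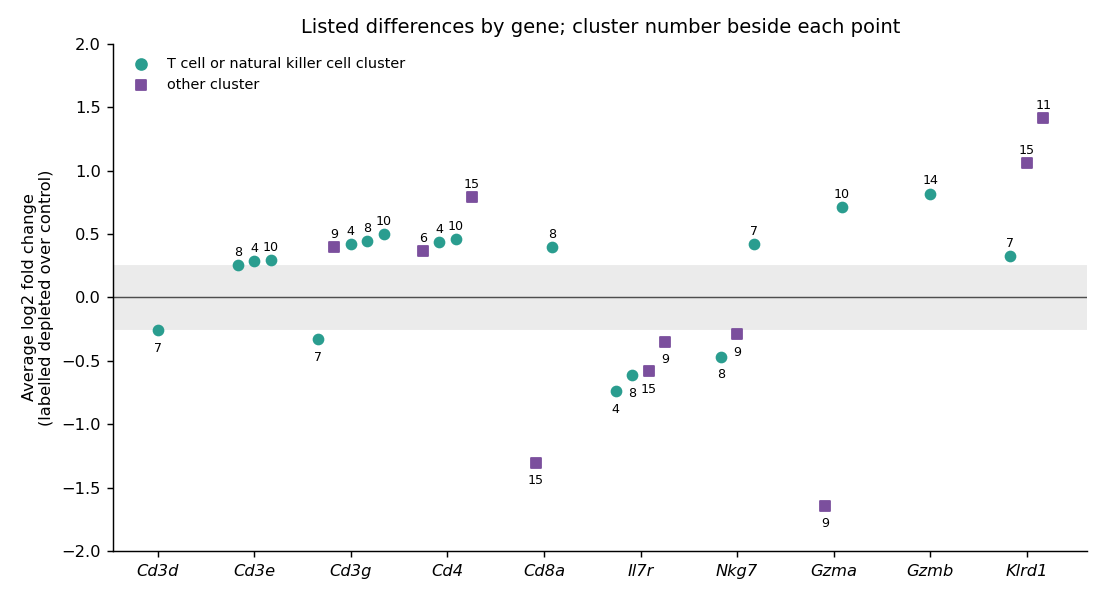
Average log2 fold change of the library labelled depleted over control (y axis) for each listing of the 10 genes (x axis), with the cluster number beside each point, circles for T cell or NK cell clusters and squares for other clusters. The grey band from -0.25 to 0.25 is where the tables list no gene, and the 4 points beyond 1 in size are squares, 1 of them from cluster 9, whose cells carry Cd3g at 94.1% and 97.9%.

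Among the genes of the killing machinery, Nkg7 and Gzma had both signs across clusters, Klrd1 was higher wherever listed and Gzmb was listed once. Nkg7, a granule membrane protein of cytotoxic cells, was higher in cluster 7, with 58.6% of control cells and 82.4% of the others and a log2 fold change of 0.42. In cluster 8 it was lower, with 83.6% and 77.1% and -0.47. Cluster 9 was lower too, with 47.1% and 31.2% and -0.29, which centring brought to -0.01. Whether these clusters differ from each other was not tested, since each value rests on the same 2 libraries.

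Gzma, granzyme A, held the most negative value of all 28 listings. In cluster 9 it had a count in 82.4% of control cells and 58.2% of the others, a log2 fold change of -1.64 that was 2nd lowest of 1302 listed genes. In cluster 10 it was on the other side, with 36.4% and 59.7% and 0.72, the 25th highest of 1691. Gzmb, granzyme B, which starts apoptosis in target cells, was listed only in the NK cell cluster 14, with 70.9% and 80.8% of cells and a log2 fold change of 0.82, the 11th highest of 970. The study describes clusters 6, 9 and 10 as made up mainly of cells from mice labelled depleted, and the control shares of all 3 take few distinct values, as given above.

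Klrd1, also known as CD94, which pairs with NKG2 receptors on NK cells and some cytotoxic T cells, was higher in all 3 tables that list it. In cluster 7 it had a count in 30.3% of control cells and 63.5% of the others, with a log2 fold change of 0.33. Klrb1c, the NK1.1 antigen, was at 5.1% and 32.1% in the same cluster with 0.76, and Klra9, of the Ly49 family, at 7.1% and 30.2% with 1.27. The Ly49 genes are close copies of one another, so reads of Klra9 and Klra7 may not be told apart in full. In cluster 14, by contrast, Klrd1 itself is not listed, while its partner Klrc1 was at 16.5% and 46.2% of cells with 1.18.

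Clusters 11 and 15 list members but are not named lymphocytes by the study. Cluster 11 belongs to its macrophages and monocytes, and there Klrd1 had a count in 22.2% of control cells and 68.8% of the others, with a log2 fold change of 1.42. This was the 4th highest of 729 genes and the highest of the 28 listings, and Klrd1 was the sole member listed in that cluster. Klrk1, which encodes NKG2D, stood beside it at 1.4% and 41.7% with 0.60, as did Flt3, a receptor of dendritic cells and their precursors, at 50% and 75% with 0.53. Neutrophil transcripts were lower in the same cells, with all 6 listed neutrophil genes lower and S100a8 at 59.7% against 27.1% with -2.99. Of 8 listed macrophage and monocyte genes, 7 were lower and Ly6c2 alone higher. Among them Lyz2 was at -2.15, C1qb, a complement subunit of macrophages, at 46.5% and 18.8% with -1.22, and Csf1r, the receptor for their growth factor, at 79.2% and 50% with -0.68. Their part in the Klrd1 value was not tested.

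Cluster 15, left unidentified or mixed by the study, listed 4 members. Besides Cd4, Cd8a and Il7r, it held Klrd1 in 50% of control cells and 81.8% of the others, with a log2 fold change of 1.06. None of the CD3 chains was listed in it. Siglech, a receptor of plasmacytoid dendritic cells, had a count in 100% of its cells in both libraries, with -0.59. Cd4, Il7r and Klrd1 were thus counted in cells that also carry a defining marker of another cell type.

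The fibroblast subclusters show where these genes were counted in cells that should not express them. Their 4 tables have no limits and list 9 of the 10 members, all but Gzmb. The study describes subclusters 0 and 4 as mainly control cells and subcluster 1, not analysed here, as mainly cells of the other genotype, so the background of the library labelled depleted comes from only some of its fibroblasts. Both libraries held some of these counts. Over the 36 values, 21 log2 fold changes were above 0, 12 below and 3 at 0, or 58.3% above 0 beside 46.5% of all genes in those tables. Shares were higher in 20, lower in 13 and equal in 3, beside 45.4% of all genes with a higher share. The limits used for the cluster tables were met by 4 of the 36, beside 20.3% of all genes. All 4 were higher, which the limit on detection fixed, since no member reached 25% of control cells in any subcluster. The table of the whole fibroblast cluster, number 5, lists none of them.

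Among the CD3 chains, Cd3d was at 11.7% and 9.4% of cells in subcluster 0, 10% and 39.1% in subcluster 3, 7.5% and 20% in subcluster 4, and 13% and 42.9% in subcluster 5, control first. Cd3e was at 4.1% and 6.2%, 6.7% and 13%, 7.5% and 20%, and 0% and 14.3% in the same order. Cd3g was at 8.3% and 15.6%, 6.7% and 21.7%, 7.5% and 30%, and 0% and 14.3%. In 11 of these 12 pairs the library labelled depleted was higher, beside 45.4% of all genes with a higher share. All 12 log2 fold changes were above 0, from 0.00 to 0.52, beside 46.5% of all genes.

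The co-receptors lay the same way. Cd4 had a count in 0% to 3.4% of control cells and 4.8% to 10% of the others, higher in all 4 subclusters. Cd8a was at 2.8% and 18.8%, 6.7% and 8.7%, 2.5% and 30%, and 0% and 19%. Its log2 fold changes were 0.28, -0.29, 0.81 and 0.51, so in subcluster 3 the mean count went against the share.

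Il7r was lower in 3 subclusters and at 0 in both libraries in the other. It was at 3.4%, 6.7%, 5% and 0% of control cells and at 0% in all 4 subclusters of the library labelled depleted. Of the cytotoxic genes, Nkg7 was at 5.5%, 3.3%, 7.5% and 4.3% of control cells against 3.1%, 0%, 0% and 0%. Gzma was at 10.3%, 16.7%, 12.5% and 17.4%, against 0%, 4.3%, 0% and 0%. Its log2 fold change was nonetheless 0.30 in subcluster 3, against the share. Klrd1 took neither direction, with 1 share higher, 1 lower and 2 equal and 4.3% as its highest. No upper limit is given for a share of 0, since the tables give no cell numbers.

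**Figure D3:**
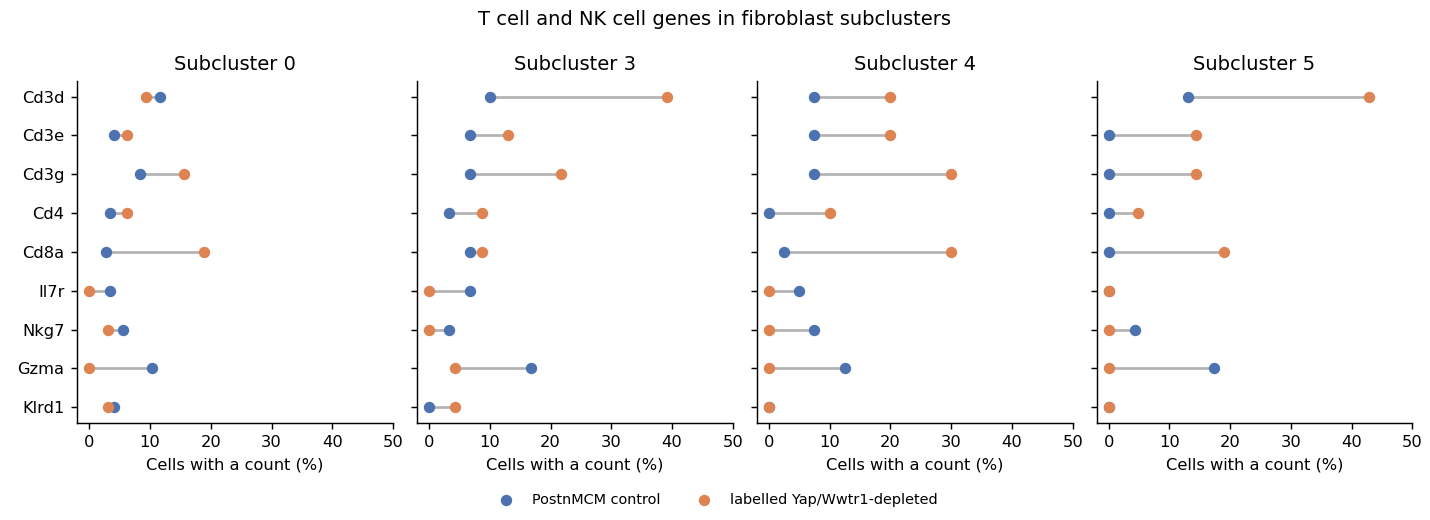
Percentage of cells with a count of 9 of the genes in 4 fibroblast subclusters, control in blue and the library labelled Yap/Wwtr1-depleted in orange, 1 library per genotype. The 3 CD3 chains lie higher in orange in 11 of 12 pairs, Gzma lies lower in all 4, and over all 36 pairs 20 are higher and 13 lower. Of all genes in these subclusters, 45.4% had a higher share.

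Markers of other blood cells differed between the libraries in the same subclusters. All 6 neutrophil genes had lower shares in the library labelled depleted in subclusters 0 and 3, as had 5 of 6 in subcluster 4 and 4 of 6 in subcluster 5. By log2 fold change all 6 were lower in subclusters 0, 3 and 4, but 5 of 6 were higher in subcluster 5, with a median of 0.23. The median share was 28.65% against 3.1% in subcluster 0 and 19.55% against 14.25% in subcluster 5. Macrophage and monocyte genes had medians from 19.55% to 44.85% in control and from 21.4% to 34.75% in the other library. In subcluster 3 their shares were lower for 6 of 10, while 9 of the 10 log2 fold changes were higher, with a median of 0.69. In subcluster 5, 8 of the 10 log2 fold changes were higher, with a median of 0.38. In subcluster 4, by contrast, 9 of the 10 were lower, with a median of -0.20. Subcluster 0 had all 10 shares lower, with 5 log2 fold changes higher and 5 lower. The fibroblast genes had a median share of 100% in both libraries in all 4 subclusters. Of 15 further T cell receptor and signalling genes, 9, 6, 7 and 9 had higher shares and 6, 8, 4 and 4 lower ones. Of 11 further cytotoxic and NK receptor genes, 4, 2, 1 and 2 were higher and 7, 8, 8 and 5 lower. Free RNA and droplets with more than 1 cell can both place lymphocyte counts in fibroblasts, and their part was not tested.

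Other genes of the same pathways were read from lists in the 5 T cell and NK cell tables. The list of T cell receptor and signalling genes had 14 genes listed 23 times, 5 lower and 18 higher, so 21.7% were lower beside the 46.9% given above, with a median log2 fold change of 0.36. Among the higher, Zap70 and Cd6 in cluster 10 and Cd8b1 in clusters 4 and 7 reached 25% only in the library labelled depleted. Among the lower, Thy1 in cluster 14 reached it only in control. The detection limit fixed the direction of these shares. Zap70, the kinase that binds the CD3 chains, was at 0% and 48.4% in cluster 10 with 0.71, but at 47.5% and 36.5% in cluster 7 with -0.27. Cd6, a co-receptor on T cells, was at 9.1% and 34.4% in cluster 10 with 0.54. In the NK cell cluster 14, Thy1 and the kinase Fyn were lower, by -0.56 and -0.52.

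Cytotoxic granule and NK receptor genes had 21 genes listed 27 times, 9 lower and 18 higher, with 33.3% lower and a median of 0.37. Among the higher, Klra9 and Klrb1c in cluster 7 and Klrc1 in cluster 14 reached 25% only in the library labelled depleted. The detection limit fixed the direction of their shares. Klrb1c in cluster 14 was at 73.4% and 100% of cells with 1.23, and Klra7, an Ly49 receptor, at 44.3% and 38.5% with -0.86. Ccl5, a chemokine of activated T cells and NK cells, was at 49.5% and 59.1% in cluster 7 with 0.88 and in all cells of both libraries in cluster 14 with -0.26. Naive, memory and regulatory T cell genes leaned the other way. Of their 24 listings of 13 genes, 17 were lower and 7 higher, or 70.8% lower, with a median of -0.32. Among the lower, Bcl2 in cluster 10 and Rora in cluster 7 reached 25% only in control. Klf2, a factor that keeps naive T cells circulating, was at 99.1% and 90% in cluster 4 with -0.91. Tcf7, a factor of naive T cells and their precursors, was higher in clusters 4, 8, 10 and 14, by 0.49, 0.27, 0.28 and 0.28. Proliferation genes were listed 4 times, 2 lower and 2 higher, with a median of 0.03. In the 13 other cluster tables, which include clusters 6 and 9, the lists split otherwise. T cell receptor and signalling genes had 9 lower and 6 higher, or 60% lower, beside 54.3% of all listings there. Cytotoxic granule and NK receptor genes had 10 lower and 3 higher, or 76.9% lower. Naive, memory and regulatory T cell genes had 12 lower and 12 higher.

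Transcripts of other cell types were also listed in the T cell and NK cell tables. All 5 listings of neutrophil genes, from 2 genes, were lower in the library labelled depleted, with a median of -0.83, as were 9 of 11 of macrophage and monocyte genes, with -0.36. The fibroblast list rested on 1 gene, Col3a1, lower in all 3 listings with a median of -0.39, and the B cell list on 1 gene, Cd74, lower in both with -0.49. Cd74 is also carried by other cells with class II molecules. S100a9 in cluster 7 was at 67.7% and 46.5% with -1.56. Of 6 listings of the dendritic cell list 5 were higher, with a median of 0.49. They came from Bst2, an interferon-induced gene of many cell types, and from Ccr9, a chemokine receptor also found on developing T cells, while Itgax was lower in cluster 14 with -0.26. Ccr9 was at 6% and 46.5% in cluster 4 with 1.64. Their part in the values of the 10 genes was not tested.

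**Figure D4:**
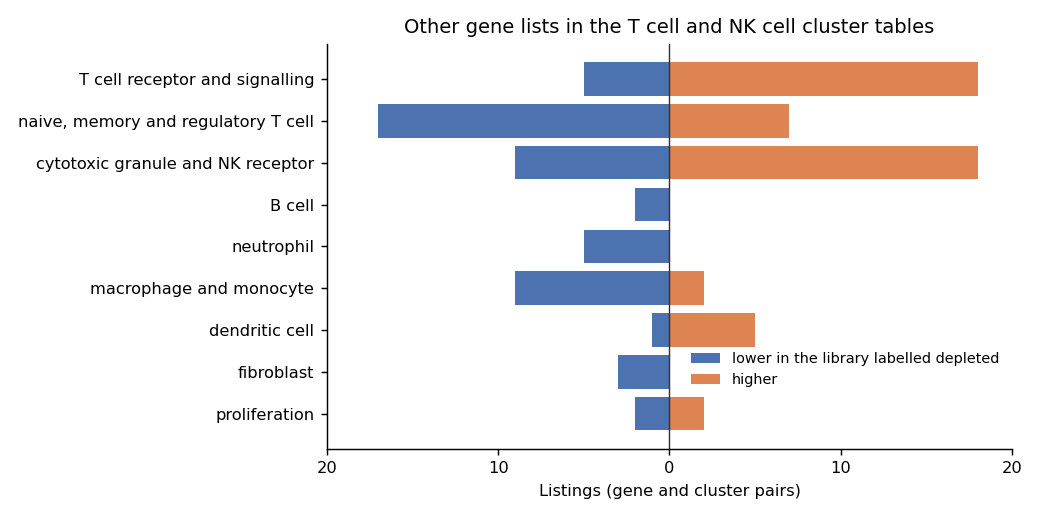
Number of listings lower (blue, left of 0) and higher (orange, right of 0) in the library labelled depleted for 9 gene lists in the 5 T cell and NK cell cluster tables, the 10 genes themselves left out. T cell receptor and cytotoxic lists have 18 higher listings each, and the naive, memory and regulatory list has 17 lower.

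Likeness between genes was read from the clusters and directions in which they were listed, as the listings shared over all listings of either gene, for the members listed at least 3 times. For Cd3e the closest gene was Tcf7, with 3 of 4 listings shared, then Lat and Cd28 with 2 of 3. Cd3g shared 4 of 6 with Dnah8 and with Atxn7l3b, and 3 of 5 with Cd3e. Cd4 shared 3 of 4 with Rpgrip1 and 4 of 6 with Ldhb. Il7r shared 3 of 4 with Igfbp4 and with Mgst2, and 3 of 5 with Bcl2. Nkg7 shared 2 of 3 with Thada, Crim1 and Cmas, and Klrd1 shared 2 of 3 with Klrk1, Ctnnd2 and Lyn. All of these overlaps come from the same 2 libraries and few tables, and describe the listings alone.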

How the data were processed

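Interstitial cells of injured hearts from 2 genotypes were profiled as 2 droplet libraries, 1 per genotype. The authors processed reads with Cell Ranger 6.1.1 against GRCm39 with reporter sequences added, pooled the libraries without equalising depth, removed low-quality cells and clusters, and normalised counts with Seurat's SCTransform. No doublet caller is named in the sources used here. The deposited tables give, per gene, the fraction of cells with a corrected count in each library (printed here as a percent) and the average log2 fold change. They also hold a Wilcoxon p-value over cells by the authors, which treats cells as replicates and was used as a filter and to find the number of genes of the object. The cluster tables hold genes of at least 0.25 in size in at least 25% of cells. Cluster 16 was not compared, and subclusters 1 and 2 were not analysed here. Subclusters were normalised apart from the whole object, so shares of the 2 kinds of table are set side by side only as a background level.

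From these tables the rows of the 10 genes were taken with Python 3.11.15, pandas 2.3.3 and numpy 2.4.6, and counted by direction and cluster group. Clusters were grouped by the study's names. The number of genes of the object, 16846, was derived from the ratio of adjusted to raw p. The counting and the likeness measure were tested on simulated data. Of 9 further lists, the genes named were at most 5 per list, those of the largest size in a T cell or NK cell table, and genes named beyond that were chosen after their values were seen (Klrk1, Flt3, Lyz2, S100a8, C1qb, Csf1r and Siglech in clusters 11 and 15, Ftl1-ps2, Themis, Rag1, Dntt and Ptcra). The members and lists were chosen with earlier results of these data known. Alternatives changed the size limit, the measure of direction, the centring, a filter on the authors' adjusted p and the grouping of clusters 6 and 9. Loci came from the GENCODE annotation of GRCm39. Cell numbers are not in the tables and were not inferred from the decimals of a share, so no counting error is given.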

Additional observations from a re-analysis of the deposited data

Results flagged for a closer look

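In 4 genes the listed differences had opposite signs in different clusters, and none of these differences between clusters was tested. Cd3g had a log2 fold change of -0.33 in cluster 7 and 0.50 in cluster 10. Centring on the median of listed genes brought these to -0.04 and 0.24. The shares went against the sign in both, by 0.9 and -1.1 percentage points. Cd8a was at -1.30 in cluster 15 and 0.40 in cluster 8, or 0.13 there after centring on the median of listed genes. Its share in the cells of cluster 15 labelled depleted lay below that of fibroblast subcluster 4, a coarse value, and above the others. It is not read as expression or as background. Nkg7 was at -0.47 in cluster 8 and 0.42 in cluster 7. Gzma was at -1.64 in cluster 9 and 0.72 in cluster 10. Each value is the library labelled depleted over control, with 1 library per genotype.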

How the results depend on the processing

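No paired analysis was possible because each genotype had 1 library, and for the same reason no replicate could be left out. Over the 18 cluster tables the members were lower in 10 listings and higher in 18. A size limit of 0.5 left 5 and 5, a limit of 1 left 2 and 2, and the authors' adjusted p below 0.05 left 1 and 2. In the T cell and NK cell clusters the counts of 5 and 13 became 2 and 2, 0 and 0, and 1 and 1 under these settings. In the other clusters the counts of 5 and 5 became 3 and 3, 2 and 2, and 0 and 1. Each of these settings keeps fewer listings. At a limit of 0.5 lower and higher counts were equal, so the excess of higher listings lay below 0.5 in size. With clusters 6 and 9 added to the T cell and NK cell group, a choice made after the data were seen, that group held 8 lower and 15 higher, and the other tables without them 2 and 3. In the fibroblast subclusters, the limits of the cluster tables turned 12 lower and 21 higher into 0 and 4, a split that the detection limit fixes, since no member reached it in control cells. Direction by shares of cells reversed 4 of the 28 listings, to a difference of 0.9 percentage points for Cd3g in cluster 7, -0.9 in cluster 8 and -1.1 in cluster 10, and 6.2 for Il7r in cluster 15. Centring on the median of listed genes reversed 2, Cd3d in cluster 7 at 0.0281 and Cd3e in cluster 8 at -0.00876. It also took Gzma in cluster 10 to 0.45, and raised Nkg7 and Klrd1 in cluster 7 to 0.70 and 0.62, Cd4 in cluster 6 to 0.65 and Cd3g in cluster 9 to 0.68, with Nkg7 in cluster 8 at -0.74. Il7r came to -1.03 in cluster 4 and -0.88 in cluster 8. Since no gene between the limits is listed, that median jumps between the sides and is a coarse centre. Depth could not be weighed, as neither cell numbers nor counts are in the tables.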

Other observations

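The genes Rag1, Ptcra, Dntt and Themis belong to no list used here and were chosen after their values were seen. No theme is drawn from their differences between libraries. Their counts in both libraries mean that the cells of clusters 6, 9 and 10 cannot be taken as mature T cells alone. Rag1, the recombinase subunit that assembles antigen receptor genes, had a count in 63% of control cells and 72.4% of the others in cluster 6, with a log2 fold change of 0.46. Cluster 9 gave 41.2% and 65.1%, and cluster 10 gave 54.5% and 77.4% with 0.50. Ptcra, the alpha chain of the receptor of immature T cells, was at 23.5% and 59.8% in cluster 9 with 0.98 and at 27.3% and 49.5% in cluster 10 with 0.37. Dntt, the enzyme that adds bases at receptor gene joints, was at 90.9% and 96.2% in cluster 10 with 0.50, and at 87.5% and 86.4% of cells in cluster 15 with -0.33. Themis, a signalling protein of developing T cells, was at 21.4% and 43% in cluster 4 with 0.52, at 63.6% and 74.2% in cluster 10 with 0.32, and at 94.1% and 64.6% in cluster 9 with -0.33. Rag1 was also listed in the neutrophil cluster 18, at 0% and 29.4% with 1.16. Cd74, the class II invariant chain, was at 37% and 21.4% in cluster 6 with -3.03. These values have no replicate and carry no test.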
